A study of Mus musculus with 32 samples.

Results

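The 10 genes of this set belong to the extracellular matrix programme and were followed through lung mononuclear phagocytes: the metalloproteinases Mmp12, Mmp14 and Mmp19, the membrane protease Adam8, the protease inhibitor Timp2, the matrix components Fn1 and Vcan, and the matricellular genes Spp1, Thbs1 and Nov. They were taken by symbol from a table of 24940 genes, and all 10 were among the 12277 genes that averaged 1 TPM (a read count scaled for gene length and library depth) or more over the 16 RNA-seq libraries. The 4 cell types were sorted from lungs of DBA2/J and C57BL6/J mice, both inbred strains, and the labels give no treatment for any of them. The types are alveolar macrophages (AM), which live in the air spaces, interstitial macrophages (IM), which live in the tissue, and monocytes of an inflammatory (iMo) and a patrolling (pMo) kind, both called macrophages in the source label. Each type and strain has 2 RNA-seq libraries and 1 list of ATAC-seq peaks, which mark open chromatin, drawn from 2 libraries. Age and sex of the mice, and whether libraries came from separate animals, are not given in the labels, so the p-values rest on the spread between libraries, which may be technical.

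Metalloproteinases cut matrix proteins and free growth factors bound to them, and tissue inhibitors of metalloproteinases hold them in check. Matricellular proteins are secreted into the matrix but signal through cell-surface receptors such as integrins and CD44 rather than bearing load. Macrophages are a main source of metalloelastase, osteopontin and fibronectin in the lung, and monocytes carry versican and thrombospondin into inflamed tissue.

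From 6676152 to 22616667 whole reads fell on genes in each RNA library, and replicate libraries correlated at r = 0.877 in C57BL6/J IM to r = 0.974 in C57BL6/J AM over the 12277 genes. The deposited TPM were computed over the genomic span of each gene, introns included, so levels are compared here across libraries for a gene and not between genes. Sums over fixed marker genes are likewise compared across libraries only. In such a sum a gene of short span weighs more for the same number of reads. The summed level of the fixed markers of each sorted type was highest in that type. Single markers did not all follow the sum. Pparg, an alveolar macrophage marker, averaged 15.5 TPM in AM and 19.0 in pMo. Chil3, on the alveolar macrophage and inflammatory monocyte lists, averaged 689 TPM in AM and 111 in iMo. IM libraries also carried neutrophil markers, with a summed level over 10 genes of 19.2 to 27.3 TPM in AM, 2870 to 4730 in IM, and among monocytes 178 to 240 in iMo and 111 to 163 in pMo. S100a8, S100a9, Csf3r, Mmp9, Retnlg and Cxcr2 made up most of that sum, while Ly6g averaged 1.12 TPM and Ltf 1.81 TPM in IM. Their part in the IM levels reported here was not tested. The share of summed TPM taken by a pair of ribosomal entries was 64.3 to 67.6% in AM and 22.6 to 57.4% in the other types, and with this scaling the median gene differed by -0.68 on the log2 scale between AM and IM, against 0.08 with median-of-ratios scaling. Of the tested genes 1128 were higher and 7496 lower in AM than in IM, against 4099 and 3456 with that scaling. In bulk samples such as these, fewer cells of a type and less RNA per cell cannot be told apart.

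Promoter sequences of 300 bases, from RefSeq on GRCm38.p6, were on hand for 6 of the 10 genes. The 3 shown carry the chromatin contrast described further on: the Spp1 window holds a peak in all 8 peak lists, the Adam8 window holds one in the 6 lists that are not from AM, and the Vcan window overlaps the edge of one found in the 4 IM and iMo lists. Each runs 5′ to 3′ on the gene's strand from 250 bases before the start, and capitals mark matches to the searched motifs on either strand.
Spp1, chr5:104434861-104435160, plus strand: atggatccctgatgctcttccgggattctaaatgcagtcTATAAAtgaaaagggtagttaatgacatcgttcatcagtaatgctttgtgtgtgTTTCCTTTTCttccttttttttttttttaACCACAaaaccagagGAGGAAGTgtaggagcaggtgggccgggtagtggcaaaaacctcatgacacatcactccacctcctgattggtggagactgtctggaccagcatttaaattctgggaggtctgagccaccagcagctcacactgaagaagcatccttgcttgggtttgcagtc
Adam8, chr7:139992513-139992812, minus strand: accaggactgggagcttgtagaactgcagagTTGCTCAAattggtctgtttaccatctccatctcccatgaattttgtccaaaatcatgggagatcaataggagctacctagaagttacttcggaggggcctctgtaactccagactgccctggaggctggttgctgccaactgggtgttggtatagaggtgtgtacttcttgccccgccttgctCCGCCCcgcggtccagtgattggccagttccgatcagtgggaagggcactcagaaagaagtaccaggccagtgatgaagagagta
Vcan, chr13:89742463-89742762, minus strand: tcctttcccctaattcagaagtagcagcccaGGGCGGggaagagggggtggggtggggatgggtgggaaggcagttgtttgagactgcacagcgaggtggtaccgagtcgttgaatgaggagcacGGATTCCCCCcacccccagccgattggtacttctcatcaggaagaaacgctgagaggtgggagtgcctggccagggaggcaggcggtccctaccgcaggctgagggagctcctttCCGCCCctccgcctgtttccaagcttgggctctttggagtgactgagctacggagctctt
In the Spp1 window the matches were TATAAA, an interferon regulatory factor (IRF) motif on the reverse strand, a RUNX motif (TGTGGT, reverse strand) and the PU.1 motif GAGGAAGT. Over 32851 promoters of the same length, TATAAA occurred in 13.6%, the IRF motif in 3.44%, TGTGGT in 16.8% and GAGGAAGT in 3.2%. Adam8 held a C/EBP motif (TTNNGCAA, in 10.8% of promoters) and a GC box (GGGCGG, in 35.7%). Vcan held 2 GC boxes and an NF-kB motif (in 50.8%). These are letter matches, not binding sites. None of the 3 windows held TGANTCA (AP-1), CACGTG or CATGTG (E-boxes), TGACGTCA (CRE), AAAGGTCA (NR4A) or GCGGGGGCG (EGR).

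All 10 genes differed between AM and IM, and they did not move as a block. Spp1, Mmp19 and Nov were higher in AM, and Mmp12, Mmp14, Adam8, Timp2, Fn1, Vcan and Thbs1 were lower (limma on log2(TPM + 1) over all 16 libraries, Benjamini-Hochberg adjusted p under 0.05). Of all tested genes 70.2% were called in this comparison, 9.19% as higher and 61.1% as lower in AM. The median difference of the 10 genes was -2.09, against -0.68 for all tested genes. The directions of all 10 held with median-of-ratios scaling and without the ribosomal entries. In C57BL6/J libraries alone, Mmp19 (0.41, adjusted p = 0.326, limma) and Spp1 (0.45, adjusted p = 0.179, limma) were not called. Nov was too low to be tested in that strain, so the higher calls rest on DBA2/J. The lower genes were called lower in each strain alone.

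Against pMo, IM were higher for every one of the 10 genes, where 39.5% of all tested genes were called, 30.3% as higher and 9.20% as lower; the median was 3.12, against 0.26 for all genes. Between IM and iMo 7 were higher, 2 lower and 1 not called, with 37.3% of all genes called, 21.7% as higher and 15.6% as lower. AM were higher than iMo for 4 genes and lower for 5, with 66.2% of all genes called, 11.9% as higher and 54.3% as lower. They were higher than pMo for 6 and lower for 3, with 61.8% of all genes called, 15.2% as higher and 46.6% as lower. Between iMo and pMo 6 were higher, Spp1 was lower and 3 were not called, with 25.3% of all genes called, 18.9% as higher and 6.36% as lower. Averaged, AM and IM together were higher than iMo and pMo together for 6 genes and lower for Vcan and Thbs1, with 54.8% of all genes called, 18.9% as higher and 35.9% as lower. These comparisons share libraries, so each set of values stands on its own.

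**Figure D1:**
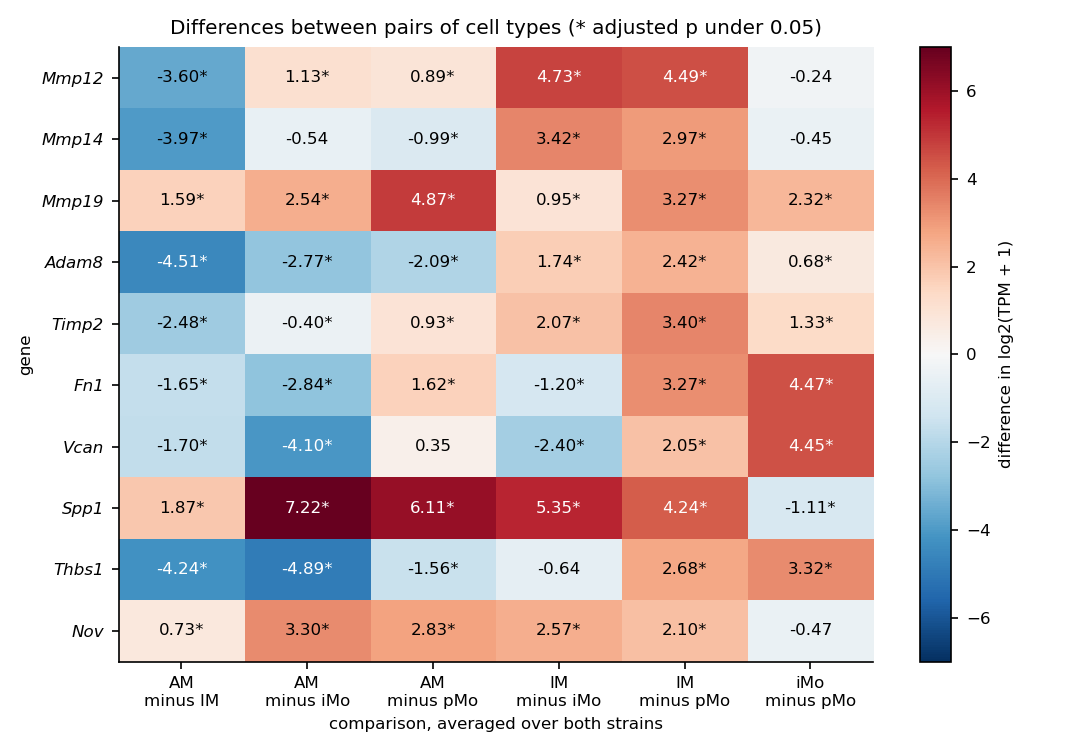
Difference in log2(TPM + 1) for each of the 10 genes (rows) in the 6 pairs of cell types (columns), averaged over both strains, with colour running from blue for lower to red for higher in the type named first; an asterisk marks adjusted p under 0.05. The IM minus pMo column is red for all 10 genes, while the AM minus IM column is red for Mmp19, Spp1 and Nov and blue for the rest.

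Among the proteases, Mmp12, the macrophage metalloelastase, was an IM gene in both strains. It stood at 6.53 and 10.0 TPM in DBA2/J AM, 0.859 and 0.299 in C57BL6/J AM, 43.4 and 45.6 in DBA2/J IM, 54.5 and 37.1 in C57BL6/J IM, 0.954 and 1.12 in DBA2/J iMo, 0.403 and 0.504 in C57BL6/J iMo, 1.17 and 1.31 in DBA2/J pMo, and 0.437 and 1.37 in C57BL6/J pMo. No IM library overlapped any other type, and iMo and pMo overlapped each other. AM minus IM gave a log2 difference of -3.60 ± 0.21 (SE; adjusted p = 7.6e-08, limma), and IM minus iMo one of 4.73 ± 0.21 (adjusted p = 4.2e-08, limma). AM exceeded pMo by 0.89 ± 0.21 over both strains (adjusted p = 0.00299, limma), but in C57BL6/J libraries alone the difference was -0.25 (adjusted p = 0.578, limma).

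Mmp14, the membrane-anchored metalloproteinase that activates progelatinase, was also highest in IM. Its levels were 0.265 to 1.78 TPM in AM, 19.0 to 49.2 in IM, and among monocytes 1.26 to 2.43 in iMo and 1.37 to 6.69 in pMo. The 4 IM libraries lay above all others, and the ranges of the other types overlapped. AM were lower than IM by a log2 difference of -3.97 ± 0.32 (adjusted p = 1.1e-06, limma). The order among the rest was not firm: AM were lower than pMo (-0.99 ± 0.32, adjusted p = 0.0177, limma), but without the second C57BL6/J AM, second DBA2/J AM or second DBA2/J pMo library the adjusted p was 0.0579, 0.055 and 0.0621.

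Mmp19, a secreted metalloproteinase of the stromelysin-related branch, had another order, with AM first and pMo last. It stood at 141 and 143 TPM in DBA2/J AM, 84.0 and 65.5 in C57BL6/J AM, 17.0 and 23.5 in DBA2/J IM, and 53.3 and 57.7 in C57BL6/J IM. The iMo libraries held 14.2 to 21.4 TPM and the pMo libraries 1.87 to 5.02. All AM libraries lay above all others and all pMo libraries below, with a log2 difference of 4.87 ± 0.20 between AM and pMo (adjusted p = 5.4e-09, limma). Between AM and IM the difference was 1.59 ± 0.20 (adjusted p = 4.1e-05, limma), with 2.77 in DBA2/J (adjusted p = 3.9e-05) and 0.41 in C57BL6/J (adjusted p = 0.326). IM and iMo ranges overlapped; the difference was 0.95 ± 0.20 (adjusted p = 0.00352, limma), and 0.35 within DBA2/J (adjusted p = 0.222, limma). Mmp19 shares 792 bases with Tmem198b on the opposite strand; the libraries kept strand, but the sources used here do not say whether counting used it.

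Adam8, a protease and disintegrin of the leukocyte surface that binds to adhesion partners as well as cutting them, ran in the order IM, iMo, pMo, AM from high to low. AM libraries held 0.575 to 2.30 TPM, IM 44.1 to 51.1, iMo 12.1 to 17.7 and pMo 6.85 to 9.79, with no overlap between any pair of types. AM were lower than IM by -4.51 ± 0.20 (adjusted p = 9.4e-09, limma) and lower than pMo by -2.09 ± 0.20 (adjusted p = 3.6e-06, limma). The difference between iMo and pMo was the least firm of its type differences, at 0.68 ± 0.20 (adjusted p = 0.0253, limma), and the call was lost with other scaling (0.51, adjusted p = 0.169, and 0.41, adjusted p = 0.273), with a smaller pseudocount (adjusted p = 0.0937), and without any of 6 of the 8 monocyte libraries (adjusted p 0.0583 to 0.0824). No strain difference was called for Adam8 in any type.

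Timp2, which inhibits metalloproteinases and also takes part with Mmp14 in gelatinase activation, followed Mmp12 and Mmp14 in being highest in IM. It had 8.58 and 11.1 TPM in DBA2/J AM, 5.88 and 5.67 in C57BL6/J AM, 30.0 and 34.9 in DBA2/J IM, and 57 and 78.0 in C57BL6/J IM. In iMo it had 8.17 to 13.2 TPM and in pMo 3.01 to 3.81. The IM libraries lay above all others and the pMo libraries below all others. The log2 difference was -2.48 ± 0.13 between AM and IM (adjusted p = 4.3e-08, limma) and 1.33 ± 0.13 between iMo and pMo (adjusted p = 3.5e-05, limma). Between AM and iMo it was -0.40 ± 0.13 (adjusted p = 0.0181, limma), with overlapping ranges and a turned sign under both other scalings (0.24, adjusted p = 0.12, and 0.23, adjusted p = 0.122). Timp2 shares 10175 bases with Cep295nl on the same strand, and reads there cannot be assigned to either from these files.

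Fn1, which encodes fibronectin, the adhesive glycoprotein that integrins bind, was highest in iMo. It averaged 108 ± 9.31 TPM in AM, 341 ± 45.1 in IM, and among monocytes 790 ± 156 in iMo and 34.3 ± 3.64 in pMo (SD over n = 4 libraries a type), with no overlap between any pair of types. The difference between iMo and pMo was 4.47 ± 0.13 on the log2 scale (adjusted p = 1.2e-08, limma), and that between IM and iMo was -1.20 ± 0.13 (adjusted p = 4.9e-05, limma). No strain difference was called for Fn1 in any type.

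Vcan, which encodes versican, a large proteoglycan that binds hyaluronan, shared the order of Fn1. It stood at 1.23 and 1.30 TPM in DBA2/J AM, 0.203 and 0.186 in C57BL6/J AM, 8.11 and 9.27 in DBA2/J IM, 3.05 and 1.13 in C57BL6/J IM, 36.0 and 33.1 in DBA2/J iMo, 17.0 and 26.8 in C57BL6/J iMo, 0.561 and 0.324 in DBA2/J pMo, and 0.092 and 0.226 in C57BL6/J pMo. The iMo libraries lay above all others, and within each type both DBA2/J libraries lay above both C57BL6/J libraries. The difference between iMo and pMo was 4.45 ± 0.21 (adjusted p = 3.7e-07, limma), and that between IM and iMo -2.40 ± 0.21 (adjusted p = 6.2e-06, limma). AM and pMo did not differ past the threshold (0.35 ± 0.21, adjusted p = 0.16, limma), but with a pseudocount of 0.1 TPM the difference was 0.80 (adjusted p = 0.0452), and 5 alternatives in all called it.

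Spp1, which encodes osteopontin, a ligand of integrins and CD44, was a macrophage gene with its peak in DBA2/J AM. It stood at 816 and 901 TPM in DBA2/J AM, 128 and 120 in C57BL6/J AM, 70.7 and 107 in DBA2/J IM, 86.5 and 95.0 in C57BL6/J IM, 2.31 and 1.01 in DBA2/J iMo, 0.929 and 0.815 in C57BL6/J iMo, 2.03 and 1.90 in DBA2/J pMo, and 4.83 and 8.97 in C57BL6/J pMo. Every AM library lay above every IM library, and both types lay far above the monocytes. The log2 difference was 7.22 ± 0.20 between AM and iMo (adjusted p = 3.0e-10, limma) and 5.35 ± 0.20 between IM and iMo (adjusted p = 1.5e-08, limma). Between AM and IM it was 1.87 ± 0.20 (adjusted p = 1.2e-05, limma), made up of 3.29 in DBA2/J (adjusted p = 9.6e-05) and 0.45 in C57BL6/J (adjusted p = 0.179).

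Thbs1, which encodes thrombospondin, a ligand of Cd36 and Cd47 that can activate latent TGF-beta, was high in iMo and IM and low in AM. Its levels were 0.12 to 1.51 TPM in AM, 23.4 to 36.7 in IM, and among monocytes 37.4 to 52.8 in iMo and 1.37 to 10.0 in pMo. The iMo range lay just above the IM range, and the difference of IM from iMo did not pass the threshold (-0.64 ± 0.26, adjusted p = 0.0725, limma; -0.66, adjusted p = 0.0243, with voom on whole reads). AM were lower than IM by -4.24 ± 0.26 (adjusted p = 1.3e-07, limma). AM were also lower than pMo (-1.56 ± 0.26, adjusted p = 3.1e-04, limma), but -0.49 within DBA2/J (adjusted p = 0.235). Platelets also carry Thbs1, and the sum over 10 platelet marker genes was 10.7 to 13.4 TPM in AM, 225 to 829 in IM, and among monocytes 9.13 to 21.5 in iMo and 12.3 to 23.2 in pMo. Pf4 made up 208 to 791 TPM of the IM sum and was the only 1 of the 10 markers at 0 in every iMo library. The part of platelets in the Thbs1 level of any type was not tested.

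Nov, also named Ccn3, a matricellular gene of the connective tissue growth factor family, was high in DBA2/J AM and IM and low elsewhere. It had 69.1 and 66.9 TPM in DBA2/J AM (1932 and 1602 reads), 0.497 and 0.733 in C57BL6/J AM (9 and 22 reads), 27.7 and 33.1 in DBA2/J IM (248 and 342 reads), and 0.661 and 0 in C57BL6/J IM (5 and 0 reads). Over both strains AM exceeded IM by 0.73 ± 0.19 on the log2 scale (adjusted p = 0.00437, limma), or by 1.26 with a pseudocount of 0.1 TPM (adjusted p = 0.0832). In DBA2/J pMo it had 0.947 and 1.49 TPM (15 and 19 reads), against no read in either C57BL6/J pMo library. The iMo held 4 reads in 1 DBA2/J library and none in the other 3. A count of 0 allows up to 3 reads per library, and against that limit, 0.273 TPM on average in C57BL6/J pMo, DBA2/J pMo were at least 4.46-fold higher; such limits cover counting error only.

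**Figure D2:**
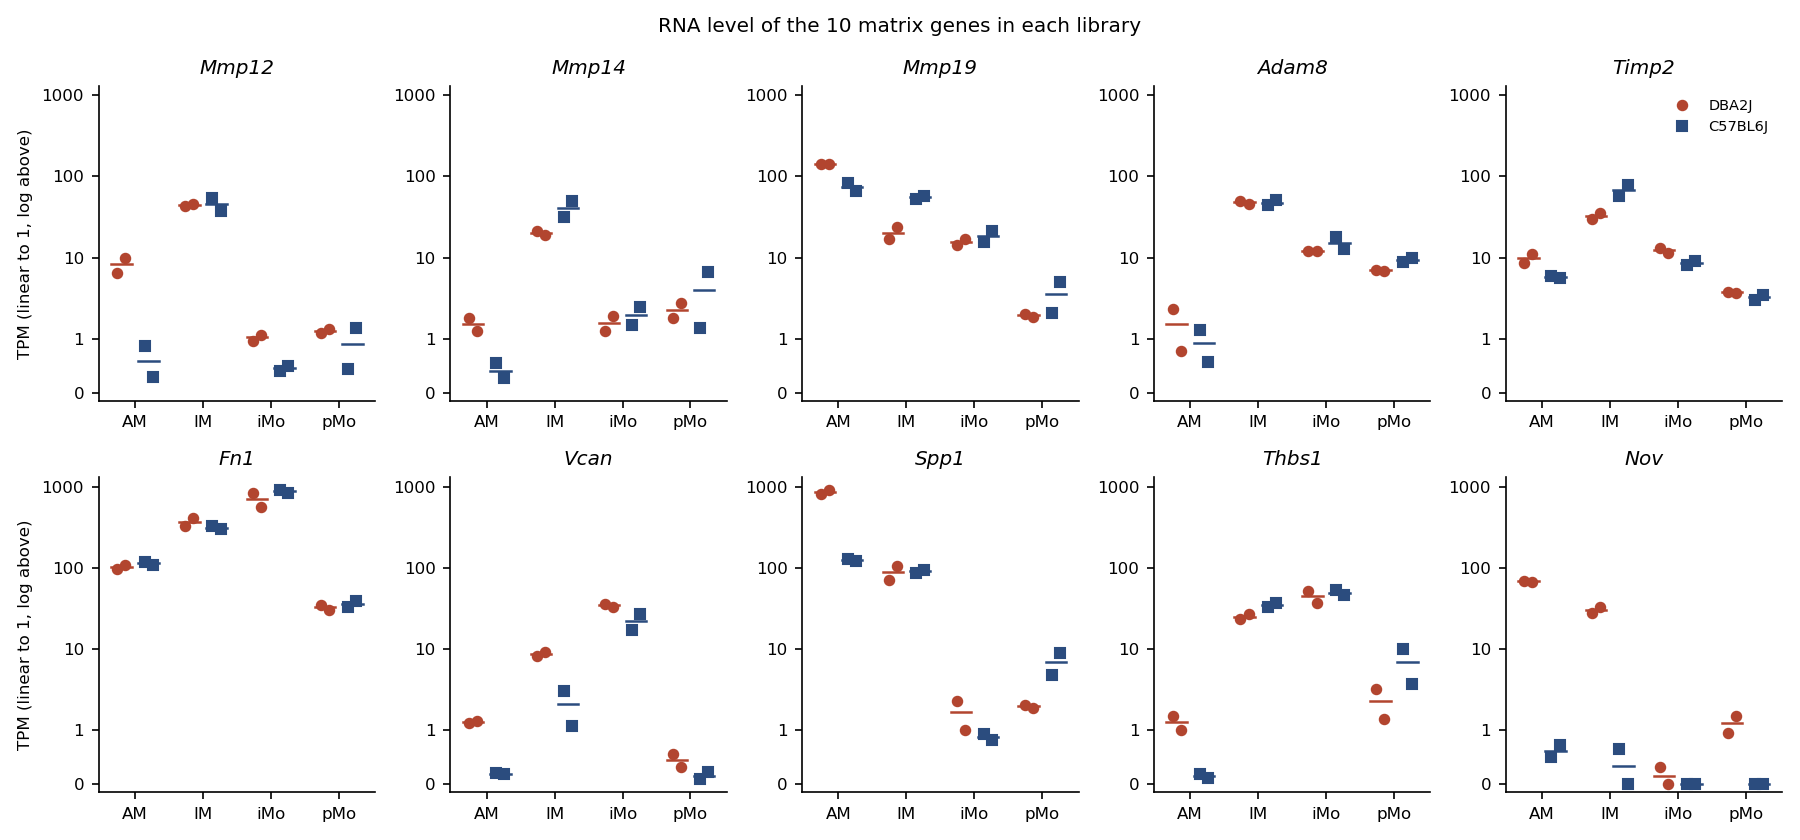
TPM of each of the 10 genes in every RNA library, by cell type, with DBA2/J libraries as circles left of C57BL6/J libraries as squares and a line at the mean of each pair; the axis is linear to 1 TPM and logarithmic above. Mmp12, Mmp14, Adam8 and Timp2 peak in IM, Mmp19 and Spp1 in AM, Fn1, Vcan and Thbs1 in iMo, and Nov is high in DBA2/J AM and IM, at 27.7 to 69.1 TPM.

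Strain differences were called in AM, IM and pMo. In AM, Mmp12, Spp1 and Nov were higher in DBA2/J and none was lower, where 3.28% of all tested genes were called, 1.99% as higher and 1.30% as lower. Spp1 averaged 859 TPM in DBA2/J AM and 124 in C57BL6/J AM, a log2 difference of 2.78 ± 0.29 (adjusted p = 1.8e-04, limma). Mmp12 averaged 8.27 TPM in DBA2/J AM and 0.579 in C57BL6/J AM, a difference of 2.55 ± 0.29 (adjusted p = 4.2e-04, limma). Nov averaged 68.0 TPM in DBA2/J AM and 0.615 in C57BL6/J AM, with a ratio of 111 and a difference of 5.42 ± 0.26 on the log2(TPM + 1) scale, which understates low levels (adjusted p = 6.7e-07, limma). Of the 10 genes 7 had an unadjusted p under 0.05 in AM, all of them higher in DBA2/J. The share of all tested genes under that threshold is not given here, so this count has no background beside it. Voom on the whole reads, a test added after seeing the data, called 7: Mmp19, Timp2, Vcan and Thbs1 beside Mmp12, Spp1 and Nov. Voom also called more genes in AM over all tested genes than limma did, as the last section gives. For Vcan, with 730 reads in DBA2/J AM and 103 in C57BL6/J AM, the voom difference was 2.70 (adjusted p = 0.00154), against 0.92 ± 0.29 (adjusted p = 0.155, limma) on the log2(TPM + 1) scale. The 8 alveolar macrophage markers summed to 1190 and 1120 TPM in DBA2/J AM, against 2190 and 2040 in C57BL6/J AM. The sums of all 12 marker lists were apart between the strains in AM, 7 of them higher and 5 lower in DBA2/J. With 2 libraries a strain, sums can lie apart without a strain difference, and the share of all genes apart is not given here. The 5 lower lists were those of alveolar macrophages, interstitial macrophages, inflammatory monocytes, neutrophils and epithelial cells. Interstitial macrophage markers summed to 62.9 and 66.2 TPM in DBA2/J AM, against 258 and 156 in C57BL6/J AM. Fibroblast markers summed to 5.34 and 5.53 TPM in DBA2/J AM, against 0.483 and 0.486 in C57BL6/J AM, and endothelial markers to 68.5 and 131 TPM in DBA2/J AM, against 25.0 and 30.9 in C57BL6/J AM. B cell markers summed to 12.3 and 16.5 TPM in DBA2/J AM, against 3.68 and 6.58 in C57BL6/J AM, and T and NK cell markers to 5.87 and 11.5 TPM in DBA2/J AM, against 2.01 and 2.31 in C57BL6/J AM. The other 3 higher lists were those of dendritic cells, patrolling monocytes and platelets. The part of any of these in the strain differences was not tested.

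In IM, Nov and Vcan were higher in DBA2/J and Mmp19 and Timp2 were lower, with 10.5% of all tested genes called, 3.77% as higher and 6.74% as lower. Nov differed by 4.60 ± 0.26 (adjusted p = 3.3e-06, limma) and Vcan by 1.72 ± 0.29 (adjusted p = 0.00433, limma). Mmp19 differed by -1.43 ± 0.29 (adjusted p = 0.0102, limma) and Timp2 by -1.02 ± 0.19 (adjusted p = 0.00626, limma). The last 2 calls rest on single libraries: without the second C57BL6/J library the adjusted p was 0.066 for Mmp19 and 0.0571 for Timp2, and without the first DBA2/J library it was 0.0974 and 0.063, which leaves 2 of the 4 genes called. Alveolar macrophage markers summed to 101 and 133 TPM in DBA2/J IM, against 454 and 668 in C57BL6/J IM, and neutrophil markers to 4730 and 4090 TPM in DBA2/J IM, against 2870 and 3120 in C57BL6/J IM. Inflammatory monocyte markers summed to 1700 and 1590 TPM in DBA2/J IM, against 1160 and 916 in C57BL6/J IM. Vcan, a gene highest in iMo, had the same direction. Fn1 and Thbs1 were also highest in iMo, and neither was called between the strains in IM. Their differences were 0.21 for Fn1 (adjusted p = 0.537, limma) and -0.47 for Thbs1 (adjusted p = 0.468, limma). Platelet markers summed to 225 and 277 TPM in DBA2/J IM, against 351 and 829 in C57BL6/J IM. Of the 12 lists 7 were apart between the strains in IM, 2 higher and 5 lower in DBA2/J, again without a share over all genes. The other 3 lower ones were those of IM themselves, endothelial cells, and T and NK cells. The part of any of these in the strain differences was not tested.

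In pMo, Nov was higher (1.14 ± 0.26, adjusted p = 0.0362, limma) and Spp1 lower in DBA2/J (-1.36 ± 0.29, adjusted p = 0.0213, limma), with 3.66% of all genes called, 1.36% as higher and 2.30% as lower. With the replicate number as a block both calls were lost (Nov 1.05, adjusted p = 0.191; Spp1 -1.26, adjusted p = 0.131, limma). The pMo count fell to 0 without either DBA2/J pMo library and to 1 without any of 7 others. Nov lost its call without any AM library (adjusted p 0.061 to 0.0711), either DBA2/J IM library (0.0512 and 0.0541) or any pMo library (0.0755 to 0.186), and Spp1 without the second C57BL6/J pMo library (-0.98, adjusted p = 0.219) or either DBA2/J one (0.0888 and 0.11). B cell markers summed to 312 and 173 TPM in DBA2/J pMo, against 60.4 and 109 in C57BL6/J pMo, and T and NK cell markers to 15.2 and 46.4 TPM in DBA2/J pMo, against 96.1 and 116 in C57BL6/J pMo. Of the 12 marker lists 7 were apart between the strains in pMo, 3 higher and 4 lower in DBA2/J, again without a share over all genes. The part of these lists in the pMo differences was not tested. In iMo limma called 0 of the 10 genes, with 3.47% of all genes called, 1.31% as higher and 2.16% as lower. Of the 10 genes 2 had an unadjusted p under 0.05 in iMo, again without a share over all genes, and voom called 0. Averaged over the cell types, Mmp12, Vcan and Nov were higher in DBA2/J, with 11.7% of all genes called, 4.37% as higher and 7.31% as lower. With the replicate block Nov alone kept its call, and Mmp12 (adjusted p = 0.152, limma) and Vcan (adjusted p = 0.0708, limma) lost theirs.

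The strain difference itself differed between cell types for 5 of the 10 genes, against 4.03% of all tested genes (F-test of the interaction in limma). The 10 genes were chosen with earlier results of these data known, so this contrast is a description and not a test of the set. Nov had an adjusted p of 4.8e-05, Spp1 0.00117, Timp2 0.0134, Mmp12 0.0139 and Mmp19 0.0309. The Mmp19 call was lost without any of 10 of the 16 libraries. For Spp1 the strain difference was 2.78 in AM, -0.06 in IM, and among monocytes 0.46 in iMo and -1.36 in pMo. For Timp2 it was 0.67 in AM, -1.02 in IM, and among monocytes 0.46 in iMo and 0.16 in pMo, and for Mmp19 0.93 in AM and -1.43 in IM. Fn1 and Adam8 had no called strain difference in any type and no called interaction (adjusted p = 0.544 and 0.56, limma). The count fell to 3 without the second C57BL6/J AM library, the second DBA2/J AM library or the first DBA2/J IM library: Mmp19 lost its call in each case, Mmp12 without either AM library (0.0846 and 0.0827), and Timp2 without the IM library (0.0693).

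**Figure D3:**
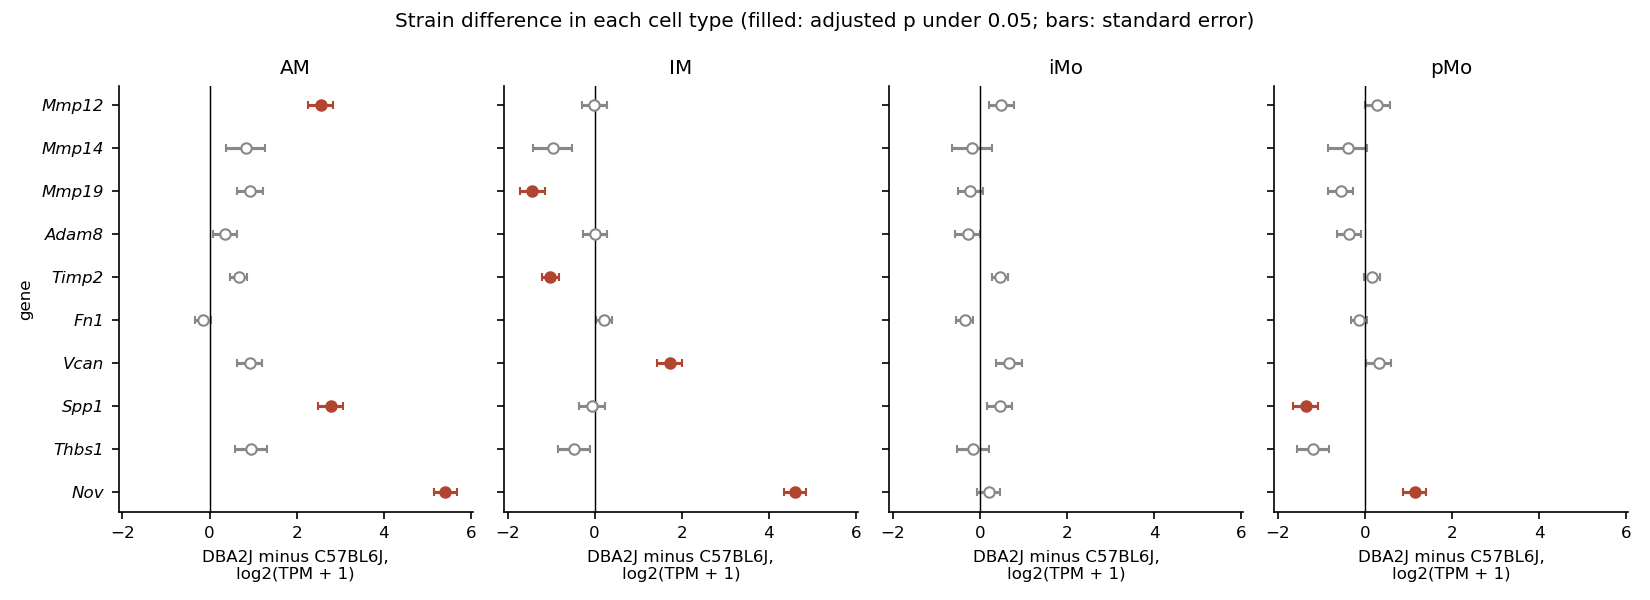
DBA2/J minus C57BL6/J difference in log2(TPM + 1) for each gene in each of the 4 cell types, with standard errors as bars; filled points have adjusted p under 0.05 and the vertical line marks no difference. The AM panel has 3 filled points to the right of the line, the IM panel 2 on each side, the iMo panel none and the pMo panel 1 on each side.

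Open chromatin was read from 8 peak lists, merged into 91199 loci, of which 74 lay within 20 kb of one of the 10 genes. The peak scores are the authors' own. Lists were of very different length, from 24429 peaks in DBA2/J IM to 70013 in C57BL6/J IM, so a missing peak says less in a short list, and with 1 list per type and strain no test was possible. Around the 10 genes 16 loci were in all 8 lists, 21.6% against 13.9% of all loci. In addition 3 loci were found in both AM lists and no other, 4.05% against 4.33% of all loci. No locus near these genes was found in both lists of IM, iMo or pMo and in no other type's, which is true of 0.462%, 0.362% and 0.224% of all loci.

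Nov had a single locus within 20 kb and within 50 kb, chr15:54745464-54745666 on mm10, 363 bases before the annotated start. It was found in the DBA2/J AM list (score 90.4, above 74.6% of that list) and in the DBA2/J IM list (score 27.4, above 11.8%), and in no other list. Those are the groups with the highest Nov levels. Of all 91199 loci, 47 (0.0515%) had that pattern.

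Spp1 was open at its RefSeq start in all 8 lists (chr5:104434911-104435150), although its RNA ran from 0.815 TPM in a C57BL6/J iMo library to 901 TPM in a DBA2/J AM library. A locus 3251 bases before the annotated start (chr5:104432825-104433058) was found in both AM lists and no other. Farther upstream, loci at 7633, 9369 and 13963 bases before that start were found in the DBA2/J AM list alone. Their scores lay above 2.92%, 12.4% and 41.7% of that list. It holds 43690 peaks, against 32668 in C57BL6/J AM, and 35.9% of all loci were in 1 list only. A locus at 10115 bases was in the AM and iMo lists of both strains. Mmp19 likewise had a locus in both AM lists and no other, 9710 bases before its start (chr10:128781143-128781347). The Mmp19 start was covered in the DBA2/J AM list alone, by a peak scored above 15.2% of that list. The third locus in both AM lists and no other was inside Timp2, 17711 bases from its start (chr11:118337595-118337806), nearer to the start of Cep295nl.

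Thbs1 and Vcan each had a locus with the same pattern at the start given in the authors' table. A locus centred 72 bases before the Thbs1 start (chr2:118111679-118111930) and one 188 bases after the Vcan start (chr13:89742178-89742470) were found in all 4 IM and iMo lists and in none of AM or pMo; 228 of all loci (0.25%) had that pattern. In both genes IM and iMo were also the types with the higher RNA levels. A further Thbs1 locus 620 bases before the start (chr2:118111146-118111366) was in those 4 lists and in that of C57BL6/J pMo. The RefSeq gene start of Vcan lies 515 bases upstream of the one in the table, and no list had a peak from 1000 bases before to 500 after that start. Inside Vcan, 3 loci 1562, 2053 and 3070 bases from the start were in all 8 lists, including those of pMo, where Vcan had at most 0.561 TPM. The Adam8 start in the table was covered in all lists but those of AM (chr7:139992459-139992679), where its RNA was lowest. Its RefSeq gene start lies 2645 bases farther upstream, and the locus beside that one (chr7:139994792-139995016) was in 4 lists, those of C57BL6/J IM, both iMo and C57BL6/J pMo, and so missing from DBA2/J IM and DBA2/J pMo as well. Fn1 and Timp2 were covered at the start in all 8 lists.

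At the locus nearest Mmp12 the peak lists did not follow the RNA in this way. That locus, 1694 bases before the annotated start (chr9:7345548-7345812), was found in 6 lists. It was missing from DBA2/J pMo and from DBA2/J IM, where Mmp12 stood at 43.4 and 45.6 TPM. Both iMo lists held it, with Mmp12 at 0.403 to 1.12 TPM. Its iMo scores were low, above 3.58% of the DBA2/J list and 0% of the C57BL6/J list. Of the loci farther upstream, that at 15350 bases was missing from C57BL6/J AM only. The locus at 10064 bases was missing from C57BL6/J AM and DBA2/J iMo, and that at 10467 bases was in all 8 lists. Mmp12 averaged 8.27 TPM in DBA2/J AM and 0.579 in C57BL6/J AM. Both pMo lists also held these 3 loci, with Mmp12 at 0.437 to 1.37 TPM. The Mmp14 start was covered in the C57BL6/J IM list alone (chr14:54431439-54431639, score 13.8), the group with the highest Mmp14 RNA, at 40.6 TPM, against 20.0 in DBA2/J IM and at most 4.03 in any monocyte or AM group. That list was also the longest, and 8 of the 13 loci near Mmp14, the start included, were in that list only. One further locus near Mmp14 (chr14:54442666-54442892) was found in 2 C57BL6/J lists, those of IM and pMo. Counted over the 10 genes with a window from 1000 bases before to 500 after the annotated start, 4 of the DBA2/J AM list, 2 of C57BL6/J AM, 6 of DBA2/J IM, 6 of C57BL6/J IM, 5 of each iMo list, 3 of DBA2/J pMo and 4 of C57BL6/J pMo had a peak, against 34.3 to 51.9% of all genes. Around the RefSeq gene starts the counts were 5 in DBA2/J AM, 3 in C57BL6/J AM, 5 in DBA2/J IM, 6 in C57BL6/J IM, 5 in each iMo list, 3 in DBA2/J pMo and 5 in C57BL6/J pMo. The share of all genes around RefSeq starts is not given here, so these last counts have no background beside them.

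**Figure D4:**
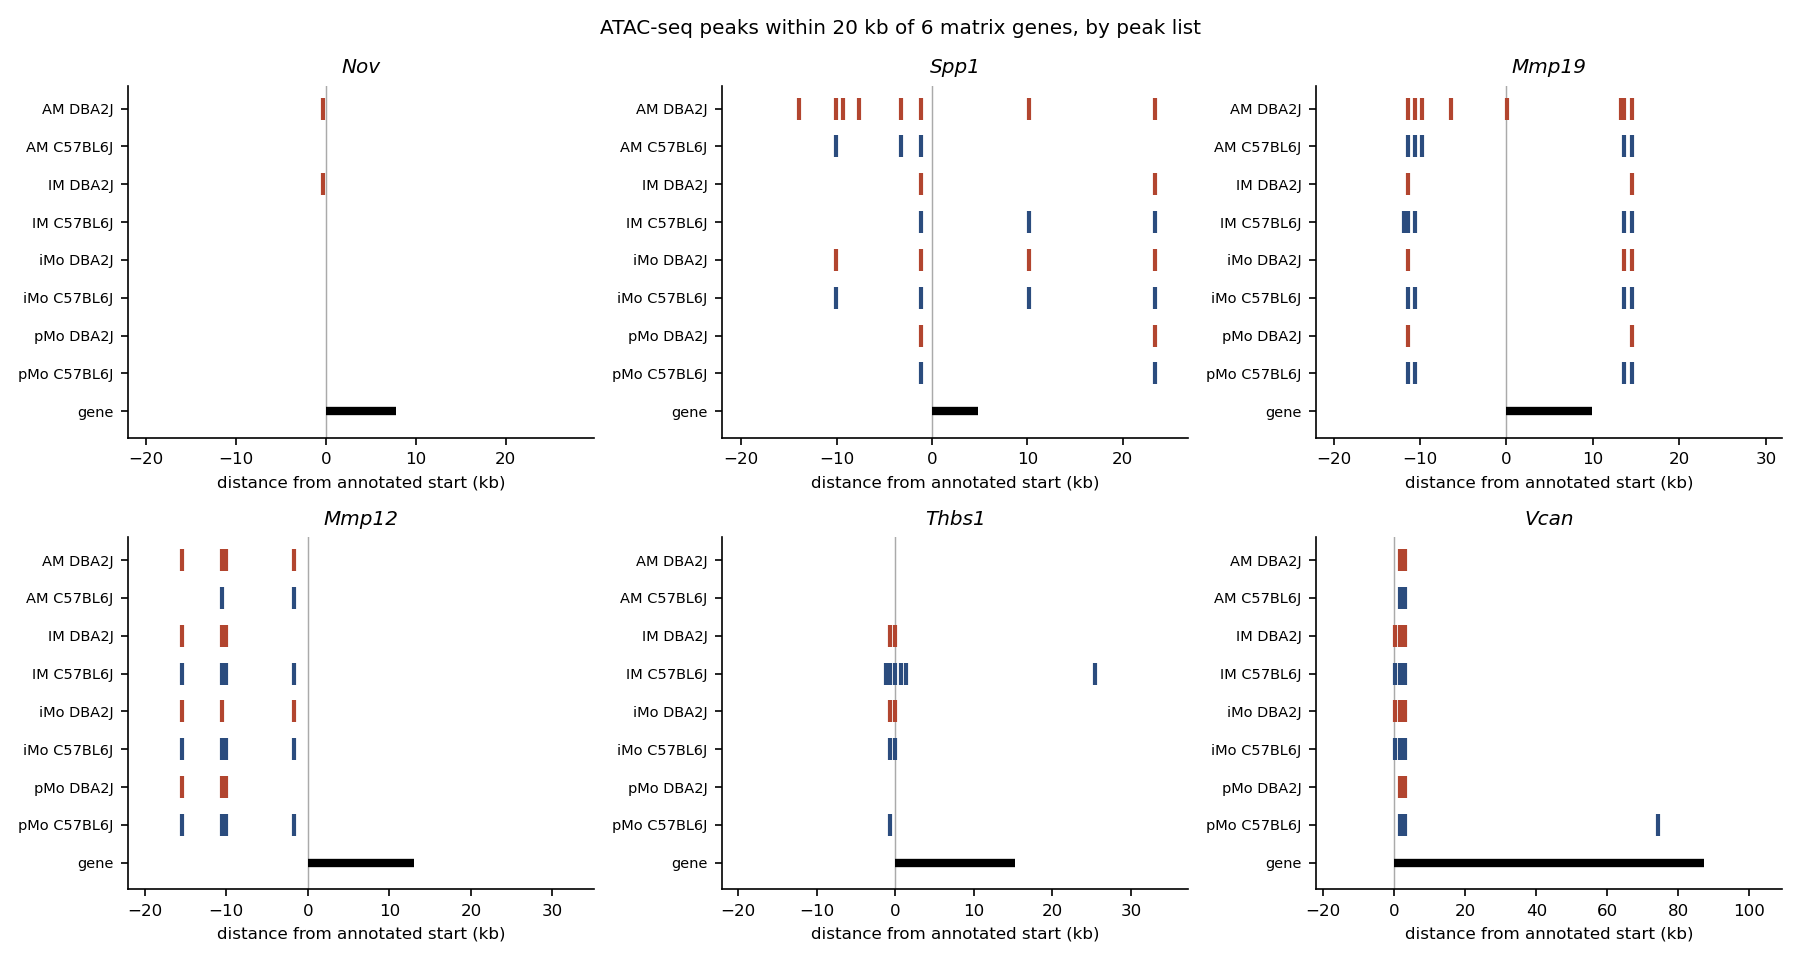
ATAC-seq peaks (ticks) within 20 kb of 6 of the genes in each of the 8 peak lists (rows, DBA2/J in red and C57BL6/J in blue), by distance in kb from the annotated start; the black bar is the gene. Nov has its 1 peak in the DBA2/J AM and IM rows, Thbs1 and Vcan have a start peak in the IM and iMo rows, and the AM rows of Spp1 and Mmp19 hold ticks that other rows lack.

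Among genes averaging 5 TPM or more, those whose log2(TPM + 1) was most like each of the 10 over the 16 libraries were found by Pearson's r; the libraries share groups of 4 types and 2 strains, so these correlations are descriptions. Nearest to Spp1 were Syne1 (r = 0.984), Slc7a2 (0.982) and Il1rl2 (0.968). Nearest to Mmp14 were Ctla2b (0.980), Wwp1 (0.973) and the scavenger receptor Stab1 (0.971), and among the nearest to Adam8 were Sesn1 (0.971) and B4galt6 (0.969). Fn1 was followed most closely by the collagenase Mmp8 (0.969), Pik3r6 (0.965) and Sema4a (0.962), and Thbs1 by Ckap4 (0.974), Batf3 (0.964) and the clotting factor subunit F13a1 (0.961). Mmp12 was nearest to Fads1 (0.951), the neutrophil marker S100a8 (0.947) and Anpep (0.946), Timp2 to Frmd4b (0.978), Selenop (0.959) and Snx9 (0.953), and Vcan to the complement gene C3 (0.938), Papd7 (0.937) and Plcb1 (0.937). The gene nearest to Mmp19 was the overlapping Tmem198b (0.983), ahead of Aplp2 (0.981) and Pwwp2b (0.974). Nov had no close match, with Plekha6 at 0.826, Bcam at 0.824 and Cxcl14 at 0.799. Among the 10 genes themselves the closest pairs were Fn1 with Vcan (0.89), and Mmp12 with Mmp14 and with Timp2 (0.86 each).

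Other genes of the matrix were read from fixed lists, beside the counts over all genes given above. Of 17 further metalloproteinases 4 passed the filter on low values, Mmp8, Mmp9, Mmp25 and Mmp28, and all 4 were lower in AM than in IM. Mmp9, a gelatinase that neutrophils also carry, averaged 0.383 TPM in AM, against 421 in IM, a log2 difference of -8.23 ± 0.17 (adjusted p = 9.1e-11, limma). Mmp8 was higher in iMo than in pMo, at 51.3 TPM in iMo and 0.556 in pMo (5.07 ± 0.22, adjusted p = 2.5e-07, limma). Of 16 ADAM and ADAMTS proteases 8 passed the filter and all 8 were lower in AM than in IM, led by Adam19, at 0.604 TPM in AM and 49.0 in IM (-4.97 ± 0.14, adjusted p = 6.7e-10, limma). The median difference was -2.60 for the metalloproteinases and -0.95 for the ADAM and ADAMTS proteases, against -0.68 for all genes. Of all tested genes 61.1% were called lower in AM than in IM, and both figures depended on the scaling, as given above. The ADAM and ADAMTS median thus lay near the background.

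Other proteases did not all go that way. Of 11 elastin-degrading and plasminogen-system proteases 8 passed the filter, with 4 higher and 2 lower in AM than in IM. Ctsk, the collagen-cutting cathepsin, averaged 94.1 TPM in AM and 29.3 in IM (2.21 ± 0.30, adjusted p = 7.0e-05, limma), and the urokinase gene Plau 8.79 in AM and 50.1 in IM (-2.44 ± 0.24, adjusted p = 6.0e-06, limma). Between strains, Ctsk was lower in DBA2/J IM, at 7.65 TPM, against 51.0 in C57BL6/J IM (-2.67 ± 0.43, adjusted p = 0.00324, limma). Ctsk was highest in AM, and the alveolar macrophage markers were lower in DBA2/J IM too, at 101 and 133 TPM, against 454 and 668 in C57BL6/J IM; their part in the Ctsk difference was not tested. Adam33 was lower in DBA2/J IM as well, at 2.01 TPM, against 33.6 in C57BL6/J IM (-3.49 ± 0.32, adjusted p = 6.7e-05, limma).

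Of 22 further matricellular and glycoprotein genes 10 passed the filter, with 3 higher and 7 lower in AM than in IM and a median of -1.45. Fgl2 averaged 5.09 TPM in AM and 437 in IM (-6.18 ± 0.23, adjusted p = 3.2e-09, limma), and Ecm1 6.82 in AM and 197 in IM (-4.34 ± 0.16, adjusted p = 2.7e-09, limma). Tgfbi, a secreted integrin ligand, was higher in iMo than in pMo, at 274 TPM in iMo and 60.5 in pMo (2.14 ± 0.11, adjusted p = 7.0e-07, limma). Between strains, Tgfbi was lower in DBA2/J AM, at 38.4 TPM, against 121 in C57BL6/J AM (-1.64 ± 0.16, adjusted p = 1.2e-04, limma). Of the 16 proteoglycan and hyaluronan genes 7 passed the filter, with 5 lower and none higher in AM than in IM and a median of -0.78, near the 61.1% lower and -0.68 of all tested genes, led by Srgn (7.79 TPM in AM and 193 in IM; -4.40 ± 0.16, adjusted p = 3.2e-09, limma).

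Of 20 collagen and crosslinking genes 8 passed the filter, with 2 higher and 4 lower in AM than in IM and a median of -0.70. The crosslinking transglutaminase Tgm2 was higher in AM than in IM, at 76.3 TPM in AM and 29.9 in IM (1.41 ± 0.11, adjusted p = 7.6e-07, limma), and lower in DBA2/J than in C57BL6/J in IM, iMo and pMo, with log2 differences of -1.12, -1.35 and -0.94. Fibroblast markers had a summed level over 9 genes of 5.34 and 5.53 TPM in DBA2/J AM, 0.483 and 0.486 in C57BL6/J AM and 2.96 to 19.0 in IM. Among monocytes the sum was 1.80 to 6.85 TPM in iMo and 1.88 to 3.70 in pMo. Lum was at 0 in every library, the only 1 of the 9 genes at 0 throughout any type. Of the 9 genes, 7 stayed under 1 TPM in every AM library, 2 in IM, 6 in iMo and 7 in pMo.

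Of 15 receptor genes for the proteins of the 10 genes, 14 passed the filter, with 2 higher and 10 lower in AM than in IM and a median of -0.56, against 9.19% higher, 61.1% lower and a median of -0.68 over all tested genes, so the receptors lay near the background. The fibronectin and osteopontin receptor chains Itga4 (11.5 TPM in AM and 121 in IM; -3.23 ± 0.26, adjusted p = 1.2e-06, limma) and Itgav (2.74 TPM in AM and 20.8 in IM; -2.56 ± 0.20, adjusted p = 1.1e-06, limma) were among the lower ones. Cd36, a thrombospondin receptor, was lower in iMo than in pMo, at 7.28 TPM in iMo and 50.3 in pMo (-2.57 ± 0.26, adjusted p = 3.8e-05, limma). Itgb3, the partner chain of Itgav, was higher in DBA2/J pMo, at 29.5 TPM, against 5.68 in C57BL6/J pMo (2.18 ± 0.38, adjusted p = 0.00847, limma). Of 12 TGF-beta axis genes 9 passed the filter, with 5 lower and none higher in AM than in IM and a median of -0.79, also near the background; Tgfb1 was lower in IM than in iMo, at 172 TPM in IM and 364 in iMo (-1.07 ± 0.12, adjusted p = 4.3e-05, limma).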

How the data were processed

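Values came from 1 table of TPM for 16 RNA-seq libraries and 8 lists of ATAC-seq peaks. The TPM values were deposited by the authors; STAR, Bowtie and HOMER are named, with build mm10, per the submitters' processing notes, without versions. The peak scores were also deposited by the authors, and each list holds peaks reproducible between 2 libraries per the labels; the sources used here do not give the scale of the score. TPM times gene length gave whole multiples of 1 step in 100% of the 10431 to 13986 values tested per library (tolerance 0.1 read), for lengths that are the genomic span in 99.2% of genes, and the recovered reads, 6676152 to 22616667 per library, set the precision.

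Genes averaging 1 TPM or more were fitted on log2(TPM + 1) by limma (version 3.58.1, R 4.3.3; 8 group means, variance trend, 8 residual degrees of freedom), for 13 contrasts, each adjusted by Benjamini-Hochberg over 12277 genes at 0.05. The fit was tested on simulated data. Alternatives were a pseudocount of 0.1, no filter on low values, median-of-ratios scaling, removal of the 2 ribosomal entries, no trend, a replicate block, each strain alone and each library left out. Voom on whole reads and RefSeq gene starts were added after seeing the data. The 10 genes and all lists were chosen with earlier results of these data known. From each list and comparison up to 3 called genes with the largest difference and at least 5 TPM in a group could be named. Peaks overlapping by 1 base were merged across lists. The correlation of same-numbered libraries over 12 pairs of types ran from -0.07 to 0.15, with 2 pairs over 0.1, so the numbers were not taken to pair libraries. Some genes of the lists are not reported here.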

Additional observations from a re-analysis of the deposited data

Results flagged for a closer look

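The difference between DBA2/J and C57BL6/J was not the same in the 4 cell types for 5 of the 10 genes, by limma's F-test of strain with cell type, adjusted over all 12277 genes. These genes had been chosen with earlier results of the same data known, so the count of 5 is a description. Nov had an adjusted p of 4.8e-05, with log2 differences of 5.42 in AM, 4.60 in IM, and among monocytes 0.20 in iMo and 1.14 in pMo. Spp1 had an adjusted p of 0.00117, with 2.78 in AM, -0.06 in IM, and among monocytes 0.46 in iMo and -1.36 in pMo. Timp2 had an adjusted p of 0.0134, with 0.67 in AM and -1.02 in IM. Mmp12 had an adjusted p of 0.0139, with 2.55 in AM and -0.01 in IM. Mmp19 had an adjusted p of 0.0309, with 0.93 in AM and -1.43 in IM, and lost the call without any of 10 of the 16 libraries (adjusted p 0.0508 to 0.128).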

How the results depend on the processing

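Of 130 results on the 10 genes, 122 kept direction and call with a pseudocount of 0.1, 129 with no filter on low values, 119 with median-of-ratios scaling, 118 without the ribosomal entries, 130 without the variance trend, 123 with the replicate block and 117 with voom on whole reads; the cause of the changes was not tested. Between DBA2/J and C57BL6/J in AM, 3 of the 10 genes were called, against 5 with a pseudocount of 0.1, 5 without the ribosomal entries and 7 with voom. In pMo 2 were called, against 1 with no filter, 0 with the replicate block and 1 with voom, and averaged over cell types 3, against 1 with the block (Mmp12 0.69, adjusted p = 0.152; Vcan 0.90, adjusted p = 0.0708). In pMo the block gave Spp1 -1.26 (adjusted p = 0.131) and Nov 1.05 (adjusted p = 0.191). Leaving out a library gave 2 to 4 called genes in IM, 0 to 2 in pMo and 3 to 6 for the interaction, and 2005 of 2080 such results kept call and direction; 62 changed in call, and in 13 a result that was not called turned sign. Over all alternatives uncalled values turned sign in 13 of the 130 results, 12 of them strain differences (such as Mmp14 in pMo, -0.40, with -1.25 to 0.45 over the libraries left out, and Adam8 in AM, 0.35, with -0.10 to 0.81). Among called results the sign turned for 2 genes, Timp2 between AM and iMo (0.24 with median-of-ratios scaling and 0.23 without the ribosomal entries) and Mmp12 between AM and pMo (-0.25 in C57BL6/J alone). Members with a promoter peak numbered 7, 5, 8, 5 and 7 in the DBA2/J AM, C57BL6/J AM, C57BL6/J iMo, DBA2/J pMo and C57BL6/J pMo lists within 2000 bases of the start. In the better-scored part of each list, they numbered 2 in DBA2/J AM, 0 in C57BL6/J AM, 1 in DBA2/J IM, 3 in each iMo list, 0 in DBA2/J pMo and 1 in C57BL6/J pMo. The share of all genes is not given for the wider window or the better-scored part, so these counts have no background. Over all genes, the strain calls in AM numbered 403, against 655 and 672 with the other scalings, 222 with the block and 796 with voom; in IM 1290, against 608 with the block; in iMo 426 against 226; in pMo 449, against 240 with the block and 699 with median-of-ratios scaling; averaged 1434 against 474; and for the interaction 495, against 841 with no filter and 755 and 827 with the other scalings. Fewer libraries lowered the counts between types: 1013 in C57BL6/J alone and 1475 in DBA2/J alone between iMo and pMo (3105 in all), 2469 and 2746 between IM and iMo (4584), 2358 in C57BL6/J between IM and pMo (4849), 5015 in DBA2/J between AM and pMo (7583) and 4467 in DBA2/J between macrophages and monocytes (6726). Leaving out 1 library of the type compared moved the strain counts over all genes to as few as 186 in AM, 492 in IM, and among monocytes 203 in iMo and 191 in pMo, and that of the interaction to between 239 and 833. Genes under 1 TPM rest on few reads, which limits Nov in monocytes and Vcan and Thbs1 in AM.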
